A study of Mus musculus with 5 samples.

Results

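The 8 mitochondrially encoded respiratory genes mtNd1, mtNd2, mtNd4, mtCytb, mtCo1, mtCo2, mtCo3 and mtAtp6 were followed through T cells sorted from the mouse brain after stroke. They were chosen by symbol among 2926 mouse genes of the deposited table, where 16 genes lay on the mitochondrial chromosome, and all 8 were found. Mitochondria make ATP by passing electrons from nutrients along respiratory complexes of the inner membrane and using the resulting proton gradient to drive ATP synthase. A few core subunits of these complexes are encoded in the mitochondrial genome and transcribed inside the organelle, and the many other subunits are encoded in the nucleus. In T cells, activation, memory and exhaustion are known to come with changes in mitochondrial mass and respiration.

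The cells came from wildtype C57BL/6 mice given a stroke by photothrombosis, in which light shone on the skull activates a circulating dye and clots the vessels of the cortex. Trained mice were put on running wheels from day 2, untrained controls were not, and the ipsilateral hemisphere of both was taken on day 14. Mononuclear cells from 37% Percoll were stained for CD45 and CD3, sorted singly into 384-well plates and read by SORT-seq, a plate method that gives each sorted cell its own barcode and reads transcripts from their 3′ ends. There were 2 untrained samples with 144 and 190 cells and 3 trained samples with 66, 124 and 168 cells, 692 in all. The labels do not say whether the samples came from separate mice, so p-values take in no more than the spread among the 5 samples, which may be technical.

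Each entry of the table was a score between -2.12 and 3.74, not a count. The scores had been centred, so a score above 0 means more than usual for that gene, levels cannot be compared between genes, and every contrast here is a difference of scores rather than a fold. Depth is unknown. Untrained sample 2 stood apart: 1632 of its 2967 rows, 6 of the 8 genes included, averaged 0 within 1e-06, and 0 rows did so in any other sample. Of 331 distinct well names 221 were used in more than 1 sample, so cells were identified by well and sample together. The mean of 7 T cell markers (Cd3d, Cd3e, Cd3g, Cd2, Cd247, Lck and Thy1) was positive in 345 cells (49.9%), called marker-positive here, and at or below 0 in 347, although all were labelled as CD3+ T cells.

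All 8 genes are encoded on the same strand of the mitochondrial genome, within 1 long precursor RNA that is cut mainly at tRNAs. No tRNA lies between mtAtp6 and mtCo3, which share a base. Since the method reads from 3′ ends, the last 30 bases of each coding sequence are shown, 5′ to 3′, from GENCODE M21 on GRCm38, with the encoded part of the stop codon in capitals. The build behind the deposited table is not given in the sources used here, and names were matched by adding a hyphen after "mt".
mtNd1 (chrM:2751-3707): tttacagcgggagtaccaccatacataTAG
mtNd2 (chrM:3914-4951): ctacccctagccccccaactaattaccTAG
mtCo1 (chrM:5328-6872): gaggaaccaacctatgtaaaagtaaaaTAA
mtCo2 (chrM:7013-7696): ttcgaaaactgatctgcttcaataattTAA
mtAtp6 (chrM:7927-8607): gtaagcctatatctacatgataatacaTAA
mtCo3 (chrM:8607-9390): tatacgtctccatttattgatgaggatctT
mtNd4 (chrM:10167-11544): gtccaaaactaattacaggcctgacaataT
mtCytb (chrM:14145-15288): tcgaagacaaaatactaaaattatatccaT
The first 5 end in a whole stop codon. In mtCo3, mtNd4 and mtCytb only a T is encoded, and the poly(A) tail is known to complete the stop. The genes are packed closely: mtAtp6 and mtCo3 share base 8607, mtAtp8 overlaps the start of mtAtp6 by 43 bases, and mtNd4l overlaps mtNd4 by 7. mtAtp8 with mtAtp6, and mtNd4l with mtNd4, are carried on shared messengers, and the nuclear genome holds near copies of mitochondrial sequence. How the authors' counting divided reads between them is not given in the sources used here. Single values of these genes are therefore uncertain to that extent.

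The 8 genes varied more between cells than most genes did. mtCo1, the catalytic core of cytochrome c oxidase (complex IV), had a median SD between cells of 0.822 within samples, the 15th highest of 2926 genes, against a median of 0.474 over all genes. mtCytb, the only mitochondrially encoded subunit of complex III, ranked 56 with an SD of 0.719, and mtCo2, which receives electrons from cytochrome c in complex IV, ranked 60 with 0.710. mtAtp6, part of the proton channel of ATP synthase (complex V), ranked 84, and mtCo3, the third core subunit of complex IV, ranked 168. The complex I (NADH dehydrogenase) subunits mtNd1, mtNd4 and mtNd2 varied least, at ranks 260, 309 and 841. These ranks describe the deposited scores, whose spread also depends on how they were scaled.

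The genes moved together from cell to cell. Within samples the median Pearson r over the 28 pairs was 0.695, and pair medians ran from 0.518 to 0.861. In single samples r ranged from 0.315 to 0.872, and all 28 pairs were positive in all 5 samples. The same figure over pairs of all mouse genes was 0.089, over pairs of cytosolic ribosomal protein genes 0.626, over pairs of the 71 measured nuclear genes of oxidative phosphorylation 0.160 and over pairs of T cell markers 0.308. By sample the medians were 0.653 and 0.696 for untrained and 0.639, 0.722 and 0.730 for trained samples. These correlations are descriptions over 66 to 190 cells a sample that share a plate, and each cell's own depth, which is unknown, may enter every gene's score.

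The strongest pair was mtCo3 with mtAtp6 (r = 0.861), the neighbours that share base 8607, followed by mtCo2 with mtAtp6 (0.825), mtCo1 with mtAtp6 (0.820) and mtCo2 with mtCo3 (0.814). The weakest were mtCo3 with mtNd2 (0.518) and mtCo1 with mtNd2 (0.521). mtAtp6 followed the mean of the other 7 genes most closely (median r 0.88) and mtNd2 least (0.66). Distance along the genome went only loosely with r over the 28 pairs, which share genes and are not independent (Pearson -0.243, Spearman -0.229). The complex IV and V genes thus formed the tightest block and complex I the loosest, as the plot of pairwise correlations shows.

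**Figure D1:**
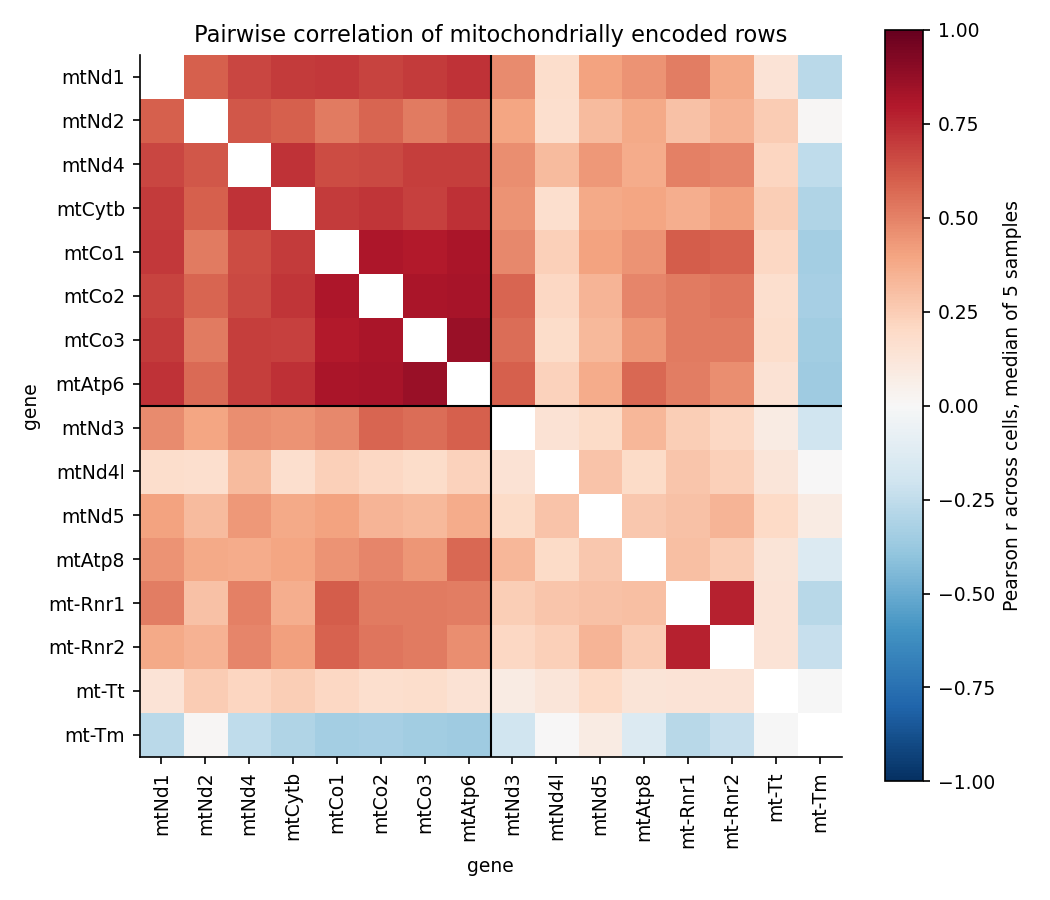
Pearson r across cells between every pair of the 16 mitochondrially encoded genes, as the median of 5 samples (colour), with the 8 respiratory genes first and the other 8 after the black lines. The upper left block is positive throughout, from 0.518 to 0.861, and the row of mt-Tm is mostly negative or near 0.

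The other 8 mitochondrially encoded genes followed less closely. The mean over samples of r with the mean of the 8 was 0.576 for mt-Rnr1 and 0.529 for mt-Rnr2, the ribosomal RNAs of the organelle. It was 0.563 for mtNd3, 0.540 for mtAtp8, 0.423 for mtNd5 and 0.248 for mtNd4l. The tRNA genes differed from the rest: mt-Tt lay at 0.203 and mt-Tm at -0.321, negative in every sample (-0.335, -0.196, -0.284, -0.409 and -0.381). mt-Tm ends at base 3913, next to the start of mtNd2 at 3914, and the r of that pair was 0.008. mt-Rnr1 and mt-Rnr2 had an r of 0.771 with each other, above that of either with the respiratory genes.

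Among nuclear genes the closest likeness was to the translation machinery. By mean r over the 5 samples with the mean of the 8 genes, the highest were Eef1a1 (0.724), which brings tRNAs to the ribosome, and Tpt1 (0.723), a translationally controlled protein. Rplp1 (0.699), Rpl13 (0.696), Gnb2l1 (0.691), the ribosomal scaffold also called Rack1, Rps29 and Rplp0 (0.685 each), Rpsa (0.679), Rps24 (0.676) and Rps16 (0.675) followed. At the other end stood A630089N07Rik (-0.700), Kcnq1ot1 (-0.689), a nuclear antisense noncoding RNA, Gm10785 (-0.687) and Gm17821 (-0.676). All of these genes stayed among the 10 highest or the 5 lowest when each cell's mean over all other genes was subtracted.

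The nuclear partners of the same complexes were less alike. All 71 measured nuclear oxidative phosphorylation genes had a positive mean r, from 0.097 to 0.450 with a median of 0.309, against 0.240 over all other mouse genes and 0.609 over cytosolic ribosomal proteins. Nuclear subunits of complex IV (median 0.365) and complex V (0.345) lay above those of complex I (0.297) and complex III (0.271). Over all cells, the mean of the nuclear genes followed that of the 8 closely (r of 0.75 and 0.64 for untrained and 0.65, 0.74 and 0.81 for trained samples). The mean over all other genes, however, did so about as closely (0.78, 0.67, 0.75, 0.78 and 0.86). Within marker-positive cells r was far lower for the nuclear genes (0.30, 0.26, 0.07, 0.10 and 0.37). It was 0.36, 0.19, 0.22, 0.19 and 0.50 there for all other genes, and 0.39, 0.35, 0.22, 0.52 and 0.43 for cytosolic ribosomal proteins.

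The co-variation was weaker among marker-positive cells than over all cells, but not absent. Within marker-positive cells the median r over the 28 pairs was 0.540, with all 28 pairs still positive in all 5 samples, while the median over all gene pairs fell to 0.014 and that over ribosomal pairs to 0.327. Within marker-negative cells it was 0.706. Subtracting each cell's mean over all other genes left 0.591 in all cells and 0.507 in marker-positive cells. Outside 203 cells high in the 2 noncoding RNAs Kcnq1ot1 and A630089N07Rik (mean score above 0.5), it was 0.558. That exclusion was chosen after the values were seen, and both RNAs are among the 5 genes least like the respiratory genes.

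The mean of the 8 genes went up with the T cell marker mean over all cells and only weakly among marker-positive cells. Across all cells of a sample, r with the marker mean was 0.63 and 0.42 for untrained and 0.58, 0.70 and 0.75 for trained samples. Within marker-positive cells it was 0.13, 0.05, 0.02, 0.14 and 0.17. Those cells were selected by the same marker mean, which narrows its range. The median r over pairs of the markers themselves fell from 0.308 in all cells to 0.005 there. Whether the weak r is particular to the 8 genes was not tested. With the spike-in RNAs, which the plates carry in every well, r over all cells was -0.14, -0.24, -0.27, 0.02 and -0.21, and so not negative in every sample. Within marker-positive cells it was negative in all 5 (-0.36, -0.29, -0.49, -0.16 and -0.47). Outside the cells high in the 2 noncoding RNAs it was more strongly negative, again in all 5 (-0.63, -0.44, -0.63, -0.35 and -0.71). Whether the amount of RNA per cell accounts for the shared movement was not tested.

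When the cells of each sample were divided into 4 equal parts by marker mean, the mean of the 8 genes rose at every step in 5 of 5 samples. It averaged -0.493 ± 0.099, -0.134 ± 0.122, 0.287 ± 0.048 and 0.434 ± 0.067 (SD, n = 5 samples) from the lowest to the highest part. Relative to the mean of all other genes it still rose at every step in 5 of 5 samples, from -0.328 ± 0.069 over -0.072 ± 0.097 and 0.244 ± 0.035 to 0.319 ± 0.047. This subtraction takes no account of the wider spread of the 8 genes. Their median SD within samples was 0.523 to 0.822, against 0.474 over all genes, and its part in the rise was not tested. mtCo1 spanned the most, from -0.605 ± 0.149 to 0.827 ± 0.127, and mtNd2 the least, from -0.338 ± 0.088 to 0.113 ± 0.184. mtCo3 and mtAtp6 rose at every step in 5 samples, mtNd2 in 3 and the remaining 5 genes in 4.

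**Figure D2:**
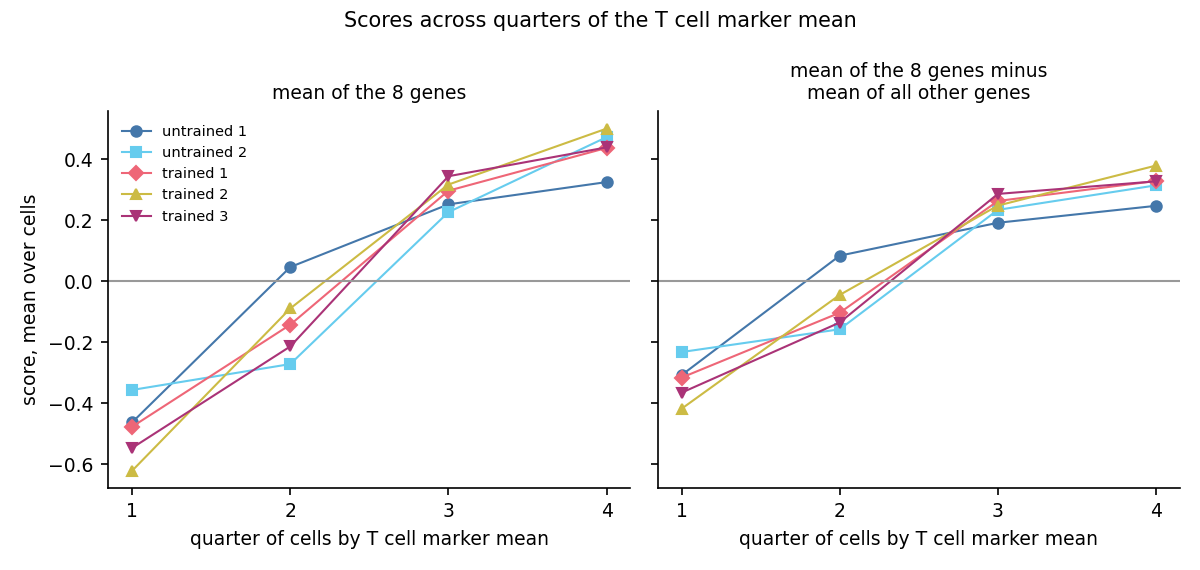
Mean score of the 8 genes (left) and the same minus the mean of all other genes (right) in 4 equal parts of each sample's cells, ordered from the lowest to the highest T cell marker mean, with 1 line per sample. All 5 lines rise at every step in both panels, on average from -0.493 to 0.434 on the left.

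Most marker-positive cells had several of the genes above 0 and most marker-negative cells had few. All 8 were above 0 in 107 of 345 marker-positive cells (31.0%, 95% Wilson interval 26.4 to 36.1) and none in 19 (5.51%, 3.55 to 8.44). Among marker-negative cells all 8 were above 0 in 16 of 347 (4.61%, 2.86 to 7.36) and none in 194 (55.9%, 50.6 to 61.0). The median number above 0 was 6 in the first class and 0 in the second. By sample, all 8 were above 0 in 20.5% and 31.4% (untrained) and 16.2%, 40.0% and 38.9% (trained) of marker-positive cells. In marker-negative cells the shares were 6.06%, 9.17%, 0%, 1.85% and 0% in the same order. The intervals cover counting error over pooled cells only and not this spread between samples, and the cells of a sample share a plate.

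All 8 genes were higher in marker-positive than in marker-negative cells, compared as mean scores per sample with sample as a block (limma, two-sided, adjusted p under 0.05 over all genes). In this comparison 88.8% of 2919 genes passed, 83.2% as higher and 5.55% as lower (89.3% at an unadjusted p under 0.05), so being higher was the rule and not a mark of the 8. The median difference of the 8 was 0.728 and that of all genes 0.203. For all 8 the lowest marker-positive sample lay above the highest marker-negative one, as for 80.3% of genes tested.

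In complex IV, mtCo1 averaged 0.580 and 0.938 in marker-positive cells of the untrained and 0.616, 0.666 and 0.655 in those of the trained samples. In marker-negative cells it averaged -0.324, -0.308, -0.466, -0.552 and -0.506 in the same order. Untrained sample 2 was highest in the first class, and the classes were far apart in every sample. The difference was 1.12 ± 0.048 (SE, n = 5 samples, limma adjusted p = 6.98e-07), the third highest of 2919 genes. Such ranks depend on each gene's spread: with scores divided by their SD, mtCo1 ranked 19. mtCo2 differed by 0.832 ± 0.051 and mtCo3 by 0.802 ± 0.049, at ranks 41 and 47.

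mtAtp6 of ATP synthase averaged 0.366 and 0.588 (untrained) and 0.561, 0.449 and 0.423 (trained) in marker-positive cells. Its marker-negative values were -0.299, -0.356, -0.539, -0.539 and -0.503. The difference of 0.925 ± 0.054 ranked 21, the second of the 8 genes. For mtCytb of complex III the values were 0.160, 0.315, 0.435, 0.415 and 0.410 in marker-positive and -0.222, -0.184, -0.364, -0.379 and -0.381 in marker-negative cells. Its difference was 0.653 ± 0.063, at rank 104, and all 3 trained samples were above both untrained ones in the first class and below both in the second.

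The complex I genes differed least. mtNd4, in the membrane arm that pumps protons, differed by 0.525 ± 0.045 and mtNd1, near the site where ubiquinone binds, by 0.509 ± 0.041. mtNd2, also of the membrane arm, averaged -0.009, 0.178, -0.080, 0.197 and 0.198 in marker-positive cells and -0.190, -0.104, -0.263, -0.321 and -0.284 in marker-negative cells. Its difference was 0.329 ± 0.054 (limma adjusted p = 0.000261), at rank 613, and 2 of its 5 marker-positive samples lay below 0. The plot by marker class shows this order from complex IV and V down to complex I in the deposited scores. With scores divided by their SD, mtCytb (0.915, rank 145) and mtNd4 (0.911, rank 149) were nearly level. mtAtp6 (rank 29), mtCo3 (46) and mtCo2 (48) stayed above them, and mtNd1 (187) and mtNd2 (582) below.

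**Figure D3:**
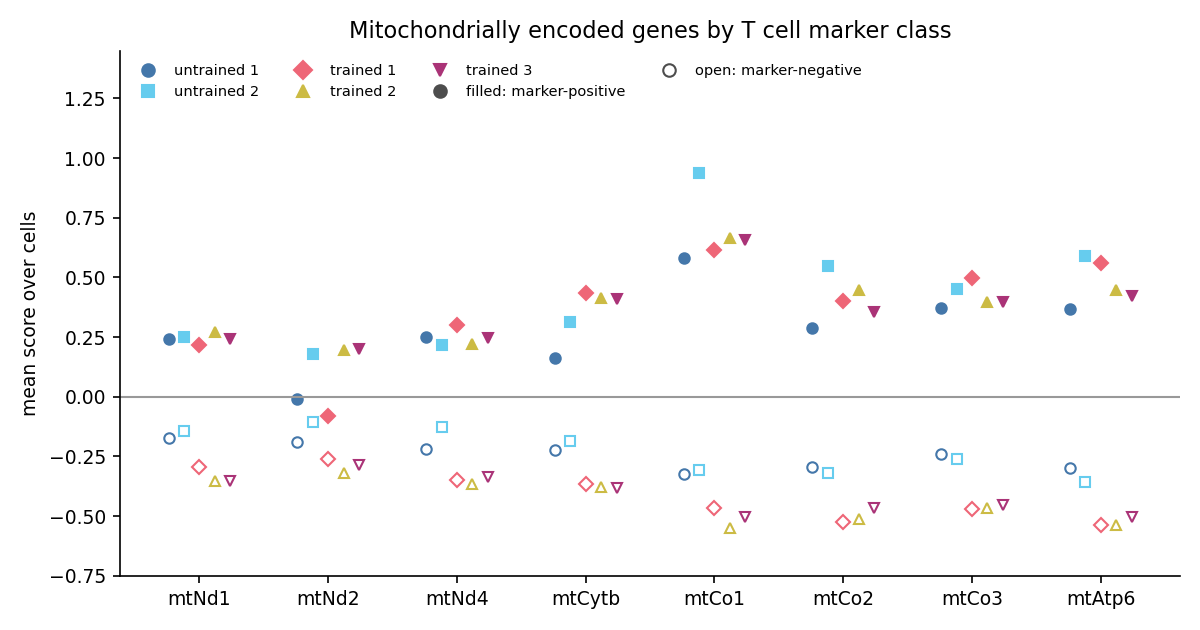
Mean score per sample of the 8 genes in marker-positive (filled) and marker-negative (open) cells, with 1 symbol per sample. Filled and open symbols do not overlap for any of the 8 genes, and the gap runs from 0.329 for mtNd2 to 1.12 for mtCo1.

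Other features of the cells moved with marker class. The 184 of 347 marker-negative cells that were high in Kcnq1ot1 and A630089N07Rik stood against 19 of 345 marker-positive cells. Cells called high in noncoding RNA below are those high in these 2 RNAs only. Neat1, a further measured noncoding RNA, went the other way and was higher in marker-positive cells by 0.351 ± 0.030. The mean of 6 myeloid markers (Cst3, Ctss, Tyrobp, Fcer1g, C1qb and Apoe) was above 0.5 in 56 marker-negative cells, 42 of them in untrained sample 2, and in 7 marker-positive cells. These 6 were the measured ones of 14 listed markers, and their mean ran from -0.203 to 0.345 over samples in marker-negative and from -0.512 to -0.032 in marker-positive cells. The part of these cells in the difference was not tested beyond leaving them out. The spike-in RNAs were higher in marker-negative than in marker-positive cells in 5 of 5 samples, at 0.141, 0.031, 0.125, 0.053 and 0.111 against 0.034, -0.063, 0.029, 0.028 and -0.021. Markers of 2 further cell types were higher in marker-positive cells with no overlap, as for 80.3% of genes tested (in either direction). The 2 measured of 6 oligodendrocyte markers averaged 0.150 to 0.312 over samples there and -0.238 to -0.189 in marker-negative cells, and the 2 measured of 4 NK cell markers 0.162 to 0.510 and -0.341 to -0.161. The part of spike-ins and of these markers in the difference was not tested. Nor was it tested whether oligodendrocytes or NK cells were among the sorted cells. Without the cells high in noncoding RNA all 8 genes still passed, among 46.5% of genes, with mtCo1 at 0.743 and mtNd1 at 0.173. Without the myeloid-high cells all 8 passed as well, among 94.5% of genes. With each cell's mean over all other genes subtracted, 743 genes were higher and 700 lower, and 7 of the 8 passed as higher, mtNd2 excepted (0.122, adjusted p = 0.0638).

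The other mitochondrially encoded genes and the nuclear partners shared the direction to differing degrees. mt-Rnr1 was higher by 0.835, and 6 of the other 8 mitochondrially encoded genes passed as higher. mt-Tm was lower by -0.350, and mt-Tt did not pass (0.065, adjusted p = 0.0608). All 71 nuclear oxidative phosphorylation genes were higher, with a median of 0.332, among them Atp5h (0.544 ± 0.038) and Atp5b (0.510 ± 0.034) of ATP synthase and Cox6a1 (0.492 ± 0.033) of complex IV. By complex the nuclear medians were 0.431 for IV, 0.393 for V, 0.296 for I, 0.248 for II and 0.229 for III. Cytosolic ribosomal proteins (69 of 70 higher, median 0.785) differed as much as the 8 genes, mitochondrial ribosomal proteins (29 of 33, 0.161) and glycolytic enzymes (9 of 9, 0.258) less.

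Cells were also divided by the scores of the coreceptors, Cd8a with Cd8b1 for cytotoxic and Cd4 for helper T cells, cut at 0. This gave 159 CD8-gated, 146 CD4-gated, 330 cells under both gates and 57 over both. The mean of the 2 measured NK cell markers, averaged over 5 samples, was 0.287 for the CD8 gate and -0.138 for the CD4 gate. Between CD8-gated and CD4-gated cells none of the 8 genes passed (limma, 5 samples), against 0.171% of 2923 genes that did, and 0 of the 8 were under an unadjusted p of 0.05 where 13.1% of genes were. None of the 8 had samples without overlap, against 4.58% of genes. Differences ran from -0.149 ± 0.102 for mtCo1 (adjusted p = 0.560) to 0.078 ± 0.063 for mtCo3 (0.632). For mtCo1 the CD8-gated minus CD4-gated differences were -0.005 and -0.799 in untrained and 0.018, 0.128 and -0.085 in trained samples. Untrained sample 2 alone was far from 0.

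Within marker-positive cells the same comparison of 108 CD8-gated and 93 CD4-gated cells called 0 of the 8 genes, against 0.412% of 2916. mtCo3 had the lowest p, at 0.171 ± 0.073 higher in CD8-gated cells in 4 of 5 samples (limma adjusted p = 0.314). Its CD8-gated values were 0.629, 0.595, 0.422, 0.527 and 0.510, and its CD4-gated values 0.339, 0.295, 0.436, 0.304 and 0.453. The groups overlapped through trained samples 1 and 3, and 0 of the 8 genes were without overlap, against 4.22% of genes. mtCo3 alone was under an unadjusted p of 0.05, as were 14.3% of genes. Among nuclear partners Atp5g2 of ATP synthase had the lowest p, with a difference of 0.290 ± 0.080 that did not pass (adjusted p = 0.110).

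Cells under both gates were lower in all 8 genes than the 305 single-gated cells, in 5 of 5 samples. Here 63.9% of 2923 genes passed and 59.9% passed as lower (68.7% at an unadjusted p under 0.05), and the median was -0.354 for the 8 and -0.117 for all genes. mtCo1 averaged -0.112, -0.077, -0.280, -0.295 and -0.176 under both gates and 0.343, 0.507, 0.436, 0.406 and 0.245 in single-gated cells. The difference of -0.576 ± 0.048 (limma adjusted p = 1.32e-06) was beyond the spread, with no overlap. mtAtp6 followed with -0.463 ± 0.045, mtCo2 with -0.431 ± 0.042 and mtCo3 with -0.403 ± 0.044. mtCytb (-0.305 ± 0.056), mtNd4 (-0.288 ± 0.060) and mtNd1 (-0.274 ± 0.058) were lower by less, and mtNd2 by the least (-0.147 ± 0.038, adjusted p = 0.00469).

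The samples of the classes did not overlap for 7 of the 8 genes, mtNd2 excepted, and for 49.7% of all genes. Of the nuclear oxidative phosphorylation genes 62 of 71 were lower (median -0.170), led by Atp5g2 (-0.268 ± 0.036), Atp5g3 (-0.274 ± 0.039) and Cox7a2l (-0.268 ± 0.039). All 7 T cell markers were lower too. Cells high in Kcnq1ot1 and A630089N07Rik made up 144 of the 330 cells under both gates and 55 of the 305 single-gated cells. Malat1, a further noncoding RNA, was lower under both gates (-0.337 ± 0.050). The spike-in RNAs were higher under both gates in 5 of 5 samples, at 0.128, 0.030, 0.168, 0.045 and 0.067 against 0.064, -0.061, -0.010, 0.036 and 0.041, and their part in the difference was not tested. Without the cells high in noncoding RNA 4 of the 8 genes passed, among 12.6% of genes: mtCytb (-0.063), mtNd1 (-0.113), mtNd2 (-0.006) and mtNd4 (-0.123) no longer did. With each cell's mean subtracted 20.3% of genes passed, and mtNd1 (-0.155, adjusted p = 0.0532) and mtNd2 (-0.028, adjusted p = 0.615) did not pass.

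Within marker-positive cells this gap was smaller, and none of the 8 genes passed, nor did any of 2916 genes (0%). Trained sample 1 was left out with 7 cells under both gates. At an unadjusted p under 0.05 were 4 of the 8, where 14.9% of genes were: mtCo1 (-0.289 ± 0.073, limma adjusted p = 0.207), mtCo2 (-0.195 ± 0.066, 0.258), mtAtp6 (-0.193 ± 0.080, 0.309) and mtCo3 (-0.154 ± 0.067, 0.312). mtCo1 averaged 0.292, 0.668, 0.507 and 0.542 under both gates and 0.748, 1.09, 0.699 and 0.630 in single-gated cells of untrained samples 1 and 2 and trained samples 2 and 3. It was lower in each of these 4 samples, but the groups overlapped. Only mtCo3 did not overlap in these 4 samples, as for 8.37% of genes. Trained sample 1, left out above, went the other way for mtCo1 (0.852 under both gates against 0.607). The same held there for mtCo2 (0.713 against 0.356), mtCo3 (0.640 against 0.428) and mtAtp6 (0.934 against 0.540). In that sample mtCytb and mtNd2 were higher under both gates too, and mtNd1 and mtNd4 lower. The complex I genes lay near 0 or above it, at 0.00047 for mtNd1, 0.009 for mtNd4 and 0.113 ± 0.076 for mtNd2.

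Cells over both gates were few, and trained sample 2 was left out with 2 such cells. All 8 differences from single-gated cells were positive, from 0.086 ± 0.136 for mtAtp6 to 0.271 ± 0.160 for mtCo1 (limma adjusted p = 0.550). None passed, and neither did any of 2923 genes (0%). None of the 8 was under an unadjusted p of 0.05 or without overlap, against 9.13% and 11.1% of genes. The samples disagreed: mtCo1 averaged 0.255, 1.30, 0.234 and 0.828 over both gates, and only untrained sample 2 and trained sample 3 were above their single-gated cells.

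**Figure D4:**
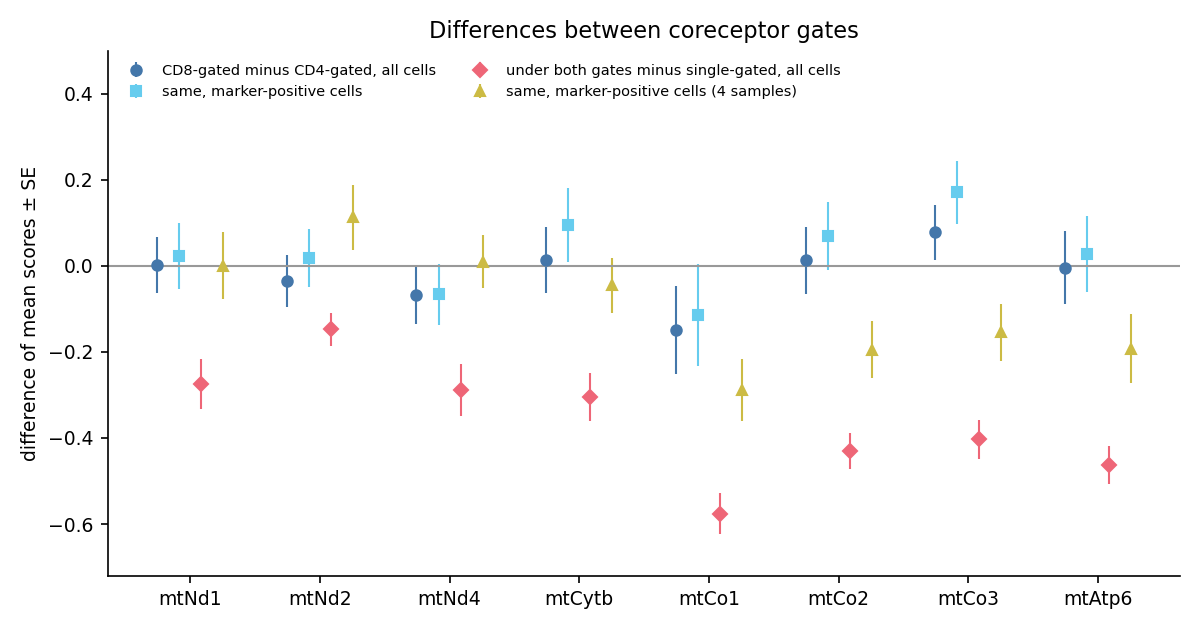
Differences of mean scores ± SE between coreceptor gates for the 8 genes, with CD8-gated minus CD4-gated cells and cells under both gates minus single-gated cells, each in all and in marker-positive cells (4 samples in the last series). Cells under both gates lie below 0 for all 8 genes in all cells, down to -0.576 for mtCo1, while the CD8-gated minus CD4-gated differences lie on both sides of 0.

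Trained and untrained samples were compared in all cells, in each marker class and in each gate. No gene passed in any of these comparisons (0% of 2926 genes in each, limma adjusted p under 0.05), so none of the 8 did. In all cells the 8 differences ran from -0.040 ± 0.025 for mtNd1 to 0.073 ± 0.023 for mtCytb. mtCytb averaged -0.015 and 0.000 in untrained and 0.084, 0.069 and 0.042 in trained samples (limma adjusted p = 0.519). The groups did not overlap for mtCytb, mtCo1 and mtNd1, 3 of the 8, as for 25.1% of genes. For mtCytb and mtNd1 the value of untrained sample 2 is the average of 0 described above. How such averages arose in that sample alone is not given in the sources used here. mtNd1 averaged 0.052 and 0.000 in untrained and -0.007, -0.0009 and -0.034 in trained samples, so its lack of overlap rests on that 0. All-cell differences of such genes therefore say little about training. For mtCo1, without such a 0, the all-cell means also lay close together, from 0.116 to 0.166 over samples. Its SD between cells within samples was 0.756 to 1.17. As the scores had been centred, all-cell differences of the other genes may say little about training too. At an unadjusted p under 0.05 was mtCytb alone among the 8, and 7.72% of all genes.

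In marker-positive cells mtCytb again had the largest difference of the 8. The sample values given for the marker classes put both untrained samples (0.160 and 0.315) under the 3 trained ones (0.410 to 0.435). The difference was 0.182 ± 0.054 (limma adjusted p = 0.998). It was the only gene of the 8 without overlap, as for 14.8% of genes, and the only one under an unadjusted p of 0.05, as for 1.71%. mtCo1 differed by -0.113 ± 0.092, a value that rested on untrained sample 2. Without that sample it was 0.066, and without untrained sample 1 it was -0.292 and passed (adjusted p = 0.0162), with 145 genes. The other 6 genes differed by between -0.018 and 0.023.

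In marker-negative cells all 8 genes were lower in each of the 3 trained than in both untrained samples. This comparison was added after those values had been seen, and 32.7% of genes did not overlap in it. mtCo3 averaged -0.241 and -0.262 in untrained and -0.470, -0.468 and -0.456 in trained samples, a difference of -0.213 ± 0.031 (limma adjusted p = 0.248). mtAtp6 (-0.199 ± 0.034), mtCo2 (-0.194 ± 0.034) and mtCo1 (-0.192 ± 0.036) came next, and mtNd2 had the smallest difference (-0.142 ± 0.038). All 8 were under an unadjusted p of 0.05, as were 13.2% of all genes. The median difference of the 8 was -0.185, against -0.032 for all genes and for the nuclear oxidative phosphorylation genes, and -0.039 for the other 8 mitochondrially encoded genes.

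Untrained sample 2 stood apart in the share of marker-positive cells, which was 54.2% and 36.8% in untrained and 56.1%, 56.5% and 53.6% in trained samples. As 6 of the 8 genes averaged 0 over all its cells, a higher mean in 1 marker class came with a lower one in the other. How far this share enters the training differences within marker classes was not tested. The sample also stood apart in the make-up of the marker-negative class. Cells high in the noncoding RNAs were 27 of 66 and 59 of 120 in the untrained and 14 of 29, 38 of 54 and 46 of 78 in the trained samples, with overlap. Myeloid-high cells were 3 of 66 and 42 of 120 in untrained and 3 of 29, 5 of 54 and 3 of 78 in trained samples, so that only untrained sample 2 was high. The mean of the myeloid markers was -0.141 and 0.345 in untrained and -0.050, -0.196 and -0.203 in trained samples, again with only untrained sample 2 apart. On average all 6 myeloid markers were lower in trained samples, with a median of -0.263, and none passed. Without the myeloid-high cells the differences of the 8 shrank to between -0.105 for mtCo2 and -0.020 for mtCytb. Without the cells high in noncoding RNA they lay between -0.235 for mtAtp6 and -0.190 for mtCo1. With the marker cut at 0.25 they lay between -0.100 for mtNd1 and -0.023 for mtAtp6.

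CD8-gated cells gave the largest training difference of mtCytb. It averaged 0.063 and -0.153 in untrained and 0.391, 0.318 and 0.248 in trained samples, with no overlap. The difference of 0.364 ± 0.082 was the second largest by size of 2926 genes, and did not pass (limma adjusted p = 0.261). mtAtp6 averaged 0.198 and -0.016 in untrained and 0.457, 0.289 and 0.245 in trained samples, a difference of 0.239 ± 0.085 (adjusted p = 0.521). These and mtCo2 (0.159 ± 0.078) did not overlap, 3 of the 8, as for 25.1% of genes, and mtCytb and mtAtp6 were under an unadjusted p of 0.05, as were 8.92%. All 8 differences were positive, with a median of 0.145 against 0.046 for all genes.

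Untrained sample 2 had the lowest CD8-gated value of mtCytb, mtAtp6, mtCo2, mtCo3, mtCo1, mtNd1 and mtNd4. Without it the difference of mtCytb was 0.256 and that of mtAtp6 0.132. With medians over cells in place of means both passed, mtCytb at 0.400 (adjusted p = 0.0459) and mtAtp6 at 0.452 (0.0225), with 9 genes in all. With the gates at 0.25 they were 0.226 and 0.038.

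In CD4-gated cells mtCytb differed by 0.023 ± 0.084. Here mtCo1 had the largest difference of the 8, at -0.284 ± 0.136 (limma adjusted p = 0.999), from 0.345 and 0.933 in untrained and 0.427, 0.345 and 0.294 in trained samples. Untrained sample 2 alone was high: without it the difference was 0.010, and without untrained sample 1 it was -0.578 and passed (adjusted p = 0.0492). Only mtNd2 (-0.088 ± 0.082) did not overlap, as for 14.5% of genes, and 0 of the 8 were under an unadjusted p of 0.05, where 2.43% of genes were.

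**Figure D5:**
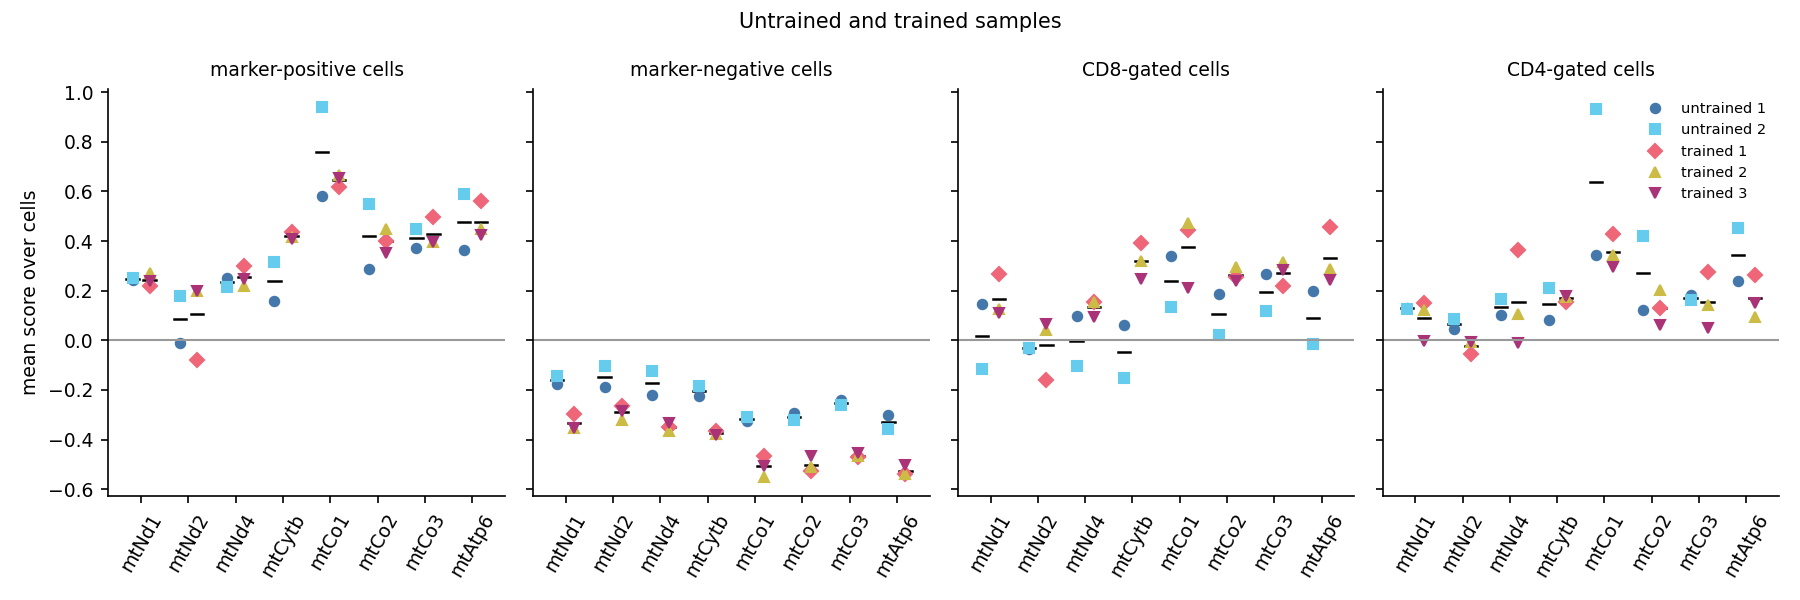
Mean score per sample of the 8 genes in marker-positive, marker-negative, CD8-gated and CD4-gated cells, with 1 symbol per sample, untrained samples on the left and trained on the right of each gene, and group means as black lines. Trained symbols lie below untrained ones for all 8 genes in marker-negative cells and above them for mtCytb in CD8-gated cells, and untrained sample 2 stands high for mtCo1 in marker-positive and CD4-gated cells.

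Whether the class differences themselves changed with training was tested directly. The marker-positive minus marker-negative difference of mtCytb was 0.383 and 0.499 in untrained and 0.800, 0.793 and 0.791 in trained samples. It was larger by 0.354 ± 0.066 in trained samples and did not pass (limma adjusted p = 0.989), where 0% of 2926 genes did. All 8 differences were larger in trained samples, with a median of 0.188 against 0.014 for all genes. mtCo3, mtCytb, mtNd1 and mtNd4 did not overlap, 4 of the 8, as for 16.3% of genes, and the same 4 were under an unadjusted p of 0.05, as were 2.46%. The 6 myeloid markers moved the same way, with a median of 0.406, and without the myeloid-high cells the value of mtCytb was 0.196.

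For the CD8-gated minus CD4-gated difference 0 of the 8 genes and 0% of 2926 passed. mtCo1 (0.422 ± 0.176), mtAtp6 (0.414 ± 0.140) and mtCytb (0.341 ± 0.135) had the largest differences between trained and untrained samples (limma adjusted p = 0.761 each). These 3 were under an unadjusted p of 0.05, as were 5.88% of genes. mtCo2, mtCytb and mtAtp6 did not overlap, as for 20.8%. Without untrained sample 2 mtCo1 fell to 0.025, mtAtp6 to 0.200 and mtCytb to 0.171, and without untrained sample 1 mtCo1 was at 0.819 and passed (adjusted p = 0.0403).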

How the data were processed

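Scores of 692 sorted cells were read from the deposited table and assigned to samples by the ending of each cell name, per the labels. The deposited values are scores: 72.7% lay below 0 and 0 were whole numbers. Per the submitters' processing notes Cell Ranger was used, with no version. For normalisation, integration and genome build a statement is not given in the sources used here. No counts are given, so no count test was used, depth is unknown and no precision could be taken from it.

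Mean scores per sample and class (at least 10 cells, or 5 for cells over both gates) were fitted over all mouse genes with limma 3.58.1 (lmFit and eBayes, two-sided, R 4.3.3) and Benjamini-Hochberg adjustment, threshold 0.05. Sample was a block where classes were compared, and genes that define a class were left out. The fit was checked on simulated data for recovery of a known shift, with noise drawn independently for each gene. Genes that vary together, as these do, were not simulated. Correlations and plots used Python 3.11.15, numpy 2.4.6, pandas 2.3.3, scipy 1.17.1 and matplotlib 3.10.9.

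The 8 genes, the lists and the comparisons were chosen with earlier results of these data known. Named genes were all mitochondrially encoded genes, the 10 most and 5 least like the mean of the 8, and the nuclear oxidative phosphorylation genes with the smallest p. A gene that this rule names is not reported here. Other scalings, cuts, summaries, cell exclusions and leaving out each sample were tried.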

Additional observations from a re-analysis of the deposited data

Results flagged for a closer look

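The CD8-gated minus CD4-gated difference of mtCytb was positive in every trained sample (0.237, 0.142 and 0.069) and negative in both untrained samples (-0.021 and -0.362). The means were 0.149 in trained and -0.192 in untrained samples, 0.341 ± 0.135 apart (limma interaction, adjusted p = 0.761). For mtAtp6 the differences were 0.195, 0.193 and 0.095 in the trained and -0.039 and -0.467 in the untrained samples, and the means of 0.161 and -0.253 were 0.414 ± 0.140 apart (limma adjusted p = 0.761). Neither interaction passed after adjustment, and in both genes untrained sample 2 was far below the other 4. Dixon's test for a single outlying sample was not run, since the groups held 2 and 3 samples.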

How the results depend on the processing

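Of the 8 genes, no called difference changed sign. The 8 calls between marker classes held under all alternatives but mtNd2 with cell means subtracted, and leaving out a sample kept 8 there and 8 for cells under both gates. Counts of genes called moved more. Between marker classes they were 1443 (cell means subtracted), 1669 (medians) and 1357 (without cells high in noncoding RNA, an exclusion chosen after seeing the data). For cells under both gates they were 592, 498 and 369 in the same order, with 4 of the 8 genes in the last, and in marker-positive cells 1 with gates at 0.25. For CD8-gated against CD4-gated cells they were 53 (scores divided by SD), 10 (cell means subtracted), 0 (medians), 1 (without myeloid-high cells), 12 (limma trend and robust) and 36 (without cells high in noncoding RNA). In marker-positive cells they were 24 (divided by SD), 0 (medians), 40 (weighted by cells), 5 (marker cut at 0.25), 2 (gates at 0.25) and 6 (without cells high in noncoding RNA). Weighting gave 1 for cells over both gates.

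With no replicate block the CD8-gated against CD4-gated comparison called 30 genes, and 21 in marker-positive cells. Dropping the block changed no call of the 8 genes. No paired analysis was possible because nothing in the labels pairs a trained with an untrained sample, and equal sample numbers do not stand for pairs.

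In training comparisons medians called 9 genes in CD8-gated cells, 2 of them among the 8 (mtCytb and mtAtp6), and 2 genes in CD4-gated cells. Gates at 0.25 called 1 in CD8-gated cells. Leaving out a sample gave 0 to 7 genes between the gates, 0 to 16 in marker-positive cells and 0 to 1 there under both gates. For training it gave 0 to 3 (all cells), 0 to 145 (marker-positive), 0 to 12 (marker-negative), 0 to 8 (CD4-gated), 0 to 96 (by marker class) and 0 to 12 (by gate). The highest counts came without untrained sample 1, except for marker-negative cells, where 9 genes passed without it and 12 without trained sample 1. Among the 8 it gave 0 to 1 in marker-positive cells, in CD4-gated cells and by gate, each time mtCo1 without untrained sample 1. That fit assumes that the lone untrained sample varies like the trained ones.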
